A study of Mus musculus with 8 samples.

Results

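Promoters that carried both a gained and a lost region of 5-hydroxymethylcytosine were examined in mouse cells that were converted from fibroblasts into neurons. The members were 418 of the 21604 genes named in the deposited files. They were chosen by the authors' lists of differential regions, as genes present both among the gained (hyper) and among the lost (hypo) promoters in at least 3 of 5 comparisons with mouse embryonic fibroblasts (MEFs). They accounted for 4857 listed regions, 1906 gained and 2951 lost, and all were used. The libraries came from neurons induced out of MEFs, taken at 1, 3, 5 and 7 dpi (the labels leave dpi unexplained), and from primary neurons of the hippocampus of pups aged 1 day. Each was set against the same MEF library, made from E13.5 embryos. All cells came from ICR mice, were labelled as passages 3 to 5 and were grown in neuronal medium, except the MEFs, which were grown in fibroblast medium. The factors or agents that induced the neurons were not given in the labels. Each group was 1 library, so no difference has a replicate check, and no p-value was computed here for any of them. A further 2 input libraries were not analysed on their own. No RNA was measured, so the labelled cell types could not be checked by their expressed markers.

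5-Hydroxymethylcytosine (5hmC) is made from methylated cytosine by the TET enzymes, and it is an intermediate in the removal of DNA methylation as well as a stable mark that is abundant in the DNA of neurons. In hMeDIP-seq, DNA fragments with 5hmC are captured with an antibody and sequenced, so a region is read through the fragments that cover it and not base by base. A promoter here means up to 2000 bp on either side of a transcription start site (TSS), so several regions can be listed for a promoter. Values below are whole sequencing reads in a region, recovered from the deposited scaled values. For equal depth, a read of the neuron library was worth 1.78 MEF reads at 1 dpi, 1.75 at 3, 5 and 7 dpi and 1.80 in primary neurons, and folds include this scaling. A fold against 0 reads was taken at a floor of 3 reads and is given as at least that size.

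The stretch from 250 bases before to 50 bases after the start site is shown for 7 named members in which it shared at least 40 bp with listed regions in 4 or 5 of the comparisons. The sequences are those of RefSeq on GRCm38.p6, the assembly of mm10, read 5′ to 3′ on the strand of the gene, with every CG dinucleotide, the main site of cytosine methylation, in capitals. Bpifb4 (chr2:153940612-153940911, plus strand) met both a gain and a loss. Cd244 (chr1:171558943-171559242, plus strand) met gained regions. Cd44 (chr2:102901616-102901915, minus strand), the second start of Gpm6a (chr8:54954478-54954777, plus strand), Meg3 (chr12:109545148-109545447, plus strand), Nfasc (chr1:132642809-132643108, minus strand) and Slc17a1 (chr13:23870023-23870322, plus strand) met lost regions.
Bpifb4: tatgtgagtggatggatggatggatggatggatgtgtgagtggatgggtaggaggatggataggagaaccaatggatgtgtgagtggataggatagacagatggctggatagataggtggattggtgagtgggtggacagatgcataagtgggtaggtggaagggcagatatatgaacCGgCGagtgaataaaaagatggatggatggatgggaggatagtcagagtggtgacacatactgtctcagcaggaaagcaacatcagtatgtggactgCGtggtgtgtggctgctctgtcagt
Cd244: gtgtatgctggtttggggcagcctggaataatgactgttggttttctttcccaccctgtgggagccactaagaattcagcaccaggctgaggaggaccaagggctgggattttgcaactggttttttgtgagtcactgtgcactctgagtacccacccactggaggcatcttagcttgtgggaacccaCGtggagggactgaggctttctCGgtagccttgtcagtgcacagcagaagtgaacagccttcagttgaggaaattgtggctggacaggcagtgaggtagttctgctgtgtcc
Cd44: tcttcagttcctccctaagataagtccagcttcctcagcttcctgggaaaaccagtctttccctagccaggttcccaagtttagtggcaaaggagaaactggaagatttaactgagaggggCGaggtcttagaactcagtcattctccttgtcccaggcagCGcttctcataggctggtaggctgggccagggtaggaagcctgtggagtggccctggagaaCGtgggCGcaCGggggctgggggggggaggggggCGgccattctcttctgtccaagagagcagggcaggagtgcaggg
Gpm6a: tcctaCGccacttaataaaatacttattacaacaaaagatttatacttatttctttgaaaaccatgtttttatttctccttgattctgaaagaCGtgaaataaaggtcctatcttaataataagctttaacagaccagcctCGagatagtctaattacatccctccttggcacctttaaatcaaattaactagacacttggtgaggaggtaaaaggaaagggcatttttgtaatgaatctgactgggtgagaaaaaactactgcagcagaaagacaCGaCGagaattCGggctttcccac
Meg3: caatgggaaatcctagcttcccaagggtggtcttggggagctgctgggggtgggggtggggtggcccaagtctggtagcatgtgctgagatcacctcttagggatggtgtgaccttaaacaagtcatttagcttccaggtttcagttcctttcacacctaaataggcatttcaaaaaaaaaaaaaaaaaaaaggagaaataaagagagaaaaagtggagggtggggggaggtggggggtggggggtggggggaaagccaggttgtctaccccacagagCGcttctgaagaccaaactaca
Nfasc: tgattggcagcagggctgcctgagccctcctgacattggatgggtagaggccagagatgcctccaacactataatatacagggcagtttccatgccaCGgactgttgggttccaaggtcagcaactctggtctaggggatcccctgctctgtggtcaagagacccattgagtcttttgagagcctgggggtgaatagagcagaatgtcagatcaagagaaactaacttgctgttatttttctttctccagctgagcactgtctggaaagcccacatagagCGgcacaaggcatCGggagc
Slc17a1: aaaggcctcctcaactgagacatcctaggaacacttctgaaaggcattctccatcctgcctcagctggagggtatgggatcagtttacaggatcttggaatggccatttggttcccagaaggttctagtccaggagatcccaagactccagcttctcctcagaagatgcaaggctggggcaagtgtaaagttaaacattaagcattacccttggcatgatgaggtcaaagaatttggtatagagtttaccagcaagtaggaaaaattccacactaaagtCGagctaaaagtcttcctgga

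CG dinucleotides were few in these windows, at 6 in Cd44 and Gpm6a, 3 in Bpifb4 and Nfasc, 2 in Cd244 and 1 in Meg3 and Slc17a1. In the window of Bpifb4, a gene of the BPI fold family, GGATGGAT was found 8 times, with overlapping matches counted on both strands. That sequence was found in 0.928% of 32851 RefSeq promoter windows of the same length, and as many as 8 copies in 1 window, that of Bpifb4 itself. The lost region of 1 and 3 dpi covered bases -250 to -142 of this window and held none of its CG dinucleotides, and neither did the gained region of 5 dpi and primary neurons, from -250 to -102. The longer gained region of 7 dpi, from -250 to -22, held 2 of the 3. In Gpm6a, which encodes a membrane glycoprotein of neurons, the lost region covered 5 of the 6 CG dinucleotides in all 5 comparisons. In Cd244, which encodes a receptor of natural killer cells, the gained region covered both at 3 dpi, at 5 dpi and for primary neurons, and 1 of them at 7 dpi.

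By comparison, 243 members were in both lists at 1 dpi, where 6.74% of all named genes were. At 3 dpi there were 314, against 5.67% of all genes, at 5 dpi 337, against 8.48%, and at 7 dpi 259, against 3.99%. In primary neurons there were 251, against 4.1% of all genes. The rule chose the members on these lists, so nothing is read from these shares. Of the 4328 genes in both lists of any comparison, 2967 were there once, 943 in 2, 295 in 3, 96 in 4 and 27 in all 5 comparisons. The members were listed as lost in 397 to 411 of 418 cases per comparison, where 41.5 to 44.8% of all genes were. As gained they were listed in 244, 318, 349 and 270 cases at 1, 3, 5 and 7 dpi and 260 in primary neurons, where 14.3, 13.3, 20.6, 9.13 and 9.05% of all genes were. The rule asks for both lists in at least 3 comparisons, all with the same MEF library. Nothing is therefore read from the counts of lost or gained listings either.

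Among the members in both lists of all 5 comparisons, Deb1 and Kcnmb3 had losses at nearly fixed places, while the place of the gain varied. A loss is listed for its MEF reads, and all 5 comparisons share the MEF library. The fixed place is therefore not read as a trait of these genes. At Deb1 the lost region lay 992 bp downstream of the TSS (chr9:121711161-121711600) in every comparison. It held 1, 0, 0 and 1 reads at 1, 3, 5 and 7 dpi and 0 in primary neurons, against 57 in MEFs. The strongest gained region lay 1268 to 1808 bp upstream and held 11, 31, 14 and 21 reads at the 4 time points and 11 in primary neurons, against 0 in MEFs. The gaps at Deb1 were 1920, 2260, 1880 and 2200 bp and, in primary neurons, 1900 bp. Kcnmb3, which encodes a regulatory subunit of calcium-activated potassium channels, had its loss about 1840 bp upstream (chr3:32493621-32494000 in every comparison but that of 3 dpi, where it was 20 bp shorter). That region held 3, 6, 4 and 2 reads at 1, 3, 5 and 7 dpi and 0 in primary neurons, against 35 in MEFs. Its gain lay 651 bp upstream at 1 dpi, with 10 reads, and 1839 to 1969 bp downstream from 3 dpi on, with 9, 19 and 12 reads and, in primary neurons, 10, against 0 in MEFs.

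Snx32, a sorting nexin gene, lost a region downstream and gained one upstream of its start. The lost region, 419 bp downstream (chr19:5509881-5510260), held 0, 2, 1 and 1 reads at 1, 3, 5 and 7 dpi and 2 in primary neurons, against 37 in MEFs. The gained regions lay 851 to 1961 bp upstream and reached 14, 9, 36 and 29 reads at the 4 time points and 14 in primary neurons, against 0 in MEFs. The gap was 960 to 1680 bp and every pair was split by the TSS. Cd244 had up to 4 gained regions in a comparison, the largest 1000 bp long at 5 dpi (chr1:171558401-171559400), where 57 reads stood against none in MEFs, which is at least 33.2-fold higher. Its largest gained region held 26, 38, 57 and 13 reads at 1, 3, 5 and 7 dpi and 11 in primary neurons. Its lost region 1148 to 1198 bp downstream held 4, 4, 4 and 6 reads at the 4 time points and 1 in primary neurons, against 36 to 39 in MEFs.

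At Slc17a1, a sodium-phosphate transporter gene, gain lay on or beside a place of loss. The region that spans the TSS, 22 to 32 bp upstream by its centre (chr13:23870061-23870440 at 1, 3 and 5 dpi), was lost in all 5 comparisons. It held 2, 3, 0 and 2 reads at 1, 3, 5 and 7 dpi and 1 in primary neurons, against 32 in MEFs. A second region, 898 bp downstream (chr13:23870981-23871360), was lost at 1 dpi with 2 reads and at 3 dpi with 14, against 60 in MEFs. A gained region with 15, 28 and 33 reads at 3, 5 and 7 dpi and 19 in primary neurons, against 0 in MEFs, ended at base 23871160, within that second region. At 3 dpi both were listed at once with 180 bp in common. Serpina9, a serpin gene, lost a region 1798 to 1858 bp upstream (chr12:104015321-104015700 at 1 and 3 dpi), which held 1, 1, 4 and 0 reads at the 4 time points and 1 in primary neurons, against 42 in MEFs. Its gained region lay 1058 bp upstream at 1 dpi, and downstream of the TSS in the other comparisons, with 9 to 16 reads against 0 in MEFs.

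**Figure D1:**
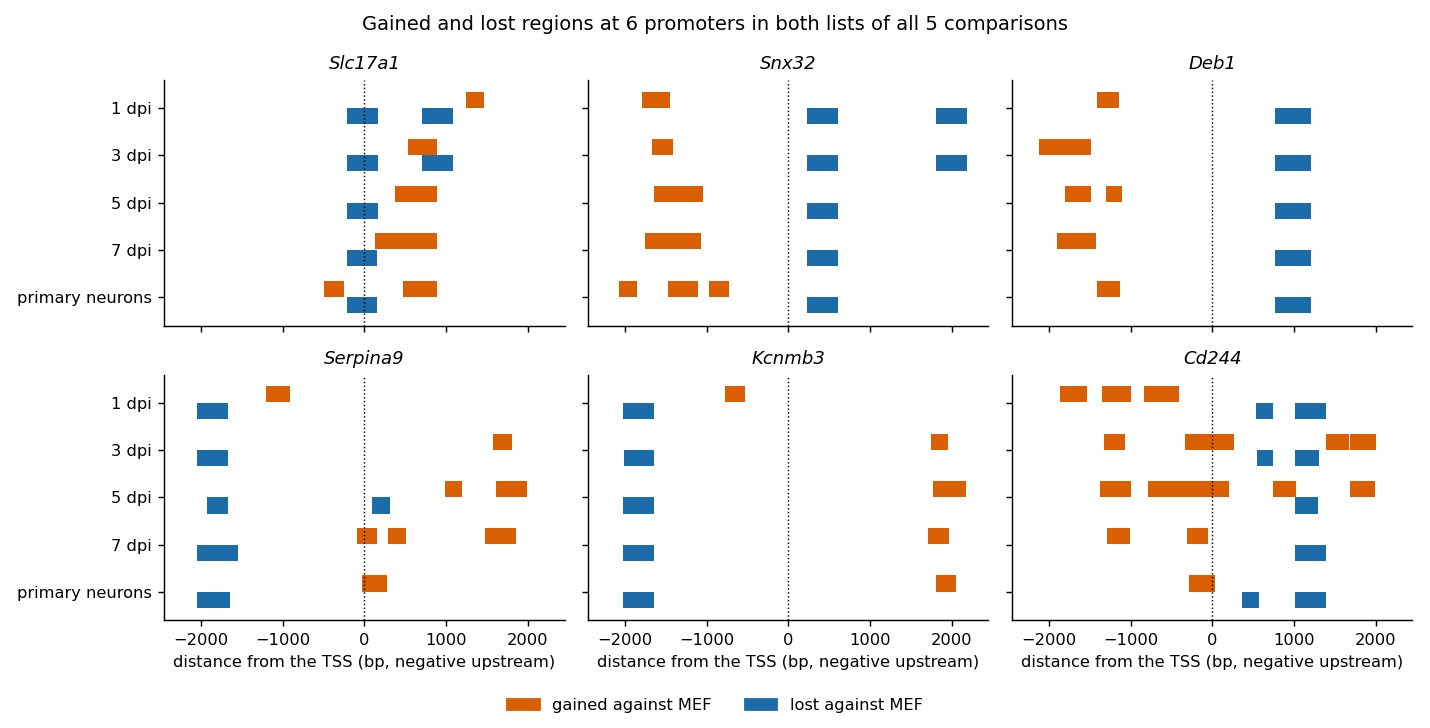
Gained (orange) and lost (blue) regions of 6 members, drawn by their distance from the TSS in bp (horizontal, dotted line at the TSS) in each library compared with MEFs (vertical). The lost region stays at one place in Deb1 and Kcnmb3, with the gain on the other side of the TSS in every library but that of 1 dpi in Kcnmb3, while in Slc17a1 gain and loss lie within 200 bp of each other. All losses are against the same MEF library, so a fixed place is not read as a trait of a gene.

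The neuronal scaffold gene Dlgap1, whose product sits in the postsynaptic density, was listed at 3 start sites. Its lost region lay 39 to 99 bp upstream of the middle one (chr17:70521881-70522260 at 5 and 7 dpi) and held 1, 0, 8 and 4 reads at 1, 3, 5 and 7 dpi and 4 in primary neurons, against 63 in MEFs. Each neuron library thus held fewer reads there than MEFs. A gained region 1621 to 1741 bp downstream of the same start held 20, 10 and 25 reads at 3, 5 and 7 dpi and 9 in primary neurons, against 0 in MEFs, and all 5 pairs were split by the TSS. Aatk, a kinase gene, had no pair split by the TSS. Its lost region, 895 to 965 bp upstream (chr11:120047921-120048300 at 5 dpi), held 3, 8, 7 and 5 reads at the 4 time points and 6 in primary neurons, against 72 to 77 in MEFs. At 1 dpi 2 gained regions, each with 11 reads, abutted it on either side, and at 3 and 5 dpi gained regions with 20 and 26 reads against 4 and 6 in MEFs overlapped it by 40 and 20 bp. Dynll2, a dynein light chain gene, had pairs from an overlap of 100 bp at 1 dpi to a gap of 8860 bp at 5 dpi, where gain and loss were at different starts.

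Over all members, the gap between the closest gained and lost region had a median of 500, 570, 580 and 600 bp at 1, 3, 5 and 7 dpi and 680 bp in primary neurons, with 95% intervals of 340 to 840, 360 to 780, 440 to 760, 340 to 800 and 500 to 920 bp. The 1401 pairs on a shared chromosome had a median gap of 600 bp, with quartiles of 20 and 1840 bp. Pairs of 1 gene recur across comparisons and share the MEF reads, so intervals over pooled pairs cover counting error only and are too narrow. Of the pooled pairs 20.2% (18.1 to 22.4) overlapped and 56 abutted with no base between them. In genes found in both lists of only 1 or 2 comparisons, 15% (14 to 16) of 4847 pairs overlapped and the median gap was 660 bp. Members also had more listed regions per gene and comparison, 1.31 gained and 1.46 lost on average against 1.09 and 1.25, which leaves more pairs to choose the closest from. With 1 gained and 1 lost region only, 14.7% (12.2 to 17.5) of 721 member pairs and 11.4% (10.3 to 12.5) of 3524 other pairs overlapped, and the median gaps were 1020 and 860 bp. The difference between the sets of genes was not tested.

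**Figure D2:**
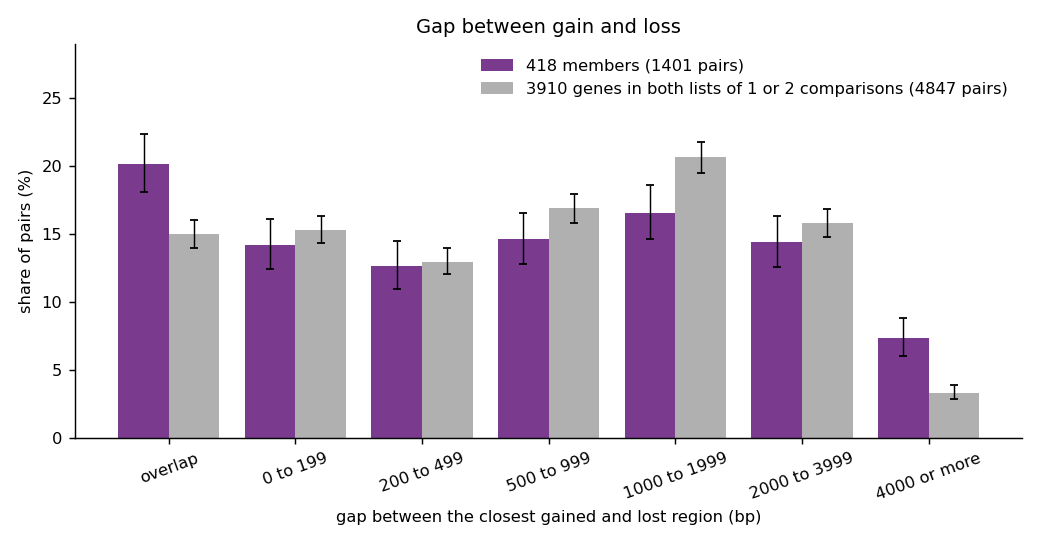
Share of pairs (vertical, %) by the gap in bp between the closest gained and lost region (horizontal) for the 418 members (purple) and the 3910 genes in both lists of 1 or 2 comparisons (grey), with exact 95% intervals. Overlapping pairs make up 20.2% in the members and 15% in the others, and gaps of 4000 bp or more 7.35% and 3.32%.

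Overlap of gain and loss in the same library was partial. Such a limit would follow if regions were runs of 200-bp windows, each in 1 list only. It is therefore not read as a trait of these promoters. The 283 overlapping pairs belonged to 177 members and shared 20 to 180 bp, with a median of 60 bp. Their gained regions held a median of 12 reads and had no MEF read in 255 pairs (90.1%), while the lost regions that they ran into held a median of 37 MEF reads and 3 reads of the other library. A gain without a MEF read thus shared bases with a loss that was listed for its MEF reads. How reads were assigned to a region, and whether repeated reads were removed, was not given in the sources used here. Regions started on a grid of 20 bp and were at least 200 bp long, and 45.1% (43.3 to 46.9) of member losses, but 8.08% (6.90 to 9.40) of member gains, were exactly 380 bp. That is the length that all 200-bp windows cover which include 1 given step of 20 bp. Over all listed genes these shares were 47.6% (47.2 to 48.0) and 8.60% (8.18 to 9.04). Over all pairs of a gene, and not the closest alone, there were 68 overlapping pairs in 56 members with a 380-bp loss and no MEF read in the gain. The gained region stayed outside the central 20 bp of the loss in 68 of them, at a median of 100 bp from it. If the loss is all 200-bp windows over that step, a gain over it would need a window listed in both directions. The outcome is then fixed in advance, and nothing is read from it. These 380-bp losses held 15 to 128 MEF reads, with a median of 42.

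The members with the shortest median distances show this arrangement at single promoters. In Krt40, a keratin gene, the lost region about 1200 bp downstream (chr11:99541801-99542120 at 3 and 7 dpi) held 2, 8, 6 and 9 reads at 1, 3, 5 and 7 dpi and 3 in primary neurons, against 46 in MEFs in every comparison although its length ran from 300 to 360 bp. A gained region that overlapped it by 100 to 120 bp held 10, 14 and 16 reads at 3, 5 and 7 dpi, against 0 in MEFs. Cog7, which encodes a subunit of a Golgi tethering complex, had 8, 2, 8 and 0 reads at the 4 time points and 7 in primary neurons, against 46 in MEFs, in its lost region (chr7:121979981-121980360, 40 bp shorter in primary neurons). Its gained region held 9 reads at 1 dpi, 10 at 7 dpi and 9 in primary neurons, against 0 in MEFs. In Samsn1, an adaptor gene of blood cells, the loss (chr16:75908581-75908960 at 1 dpi) held 4, 8, 6 and 7 reads at the 4 time points and 4 in primary neurons, against 49 in MEFs. The adjoining gain held 10, 15 and 14 reads at 3, 5 and 7 dpi and 9 in primary neurons, against 0, 3 and 0 and, in primary neurons, 0 in MEFs. In Bpifb4 the loss held 2, 8, 14 and 14 reads at the 4 time points and 11 in primary neurons, against 72 in MEFs, with gains of 10 to 16 reads, against 0 in MEFs, that abutted it at 3 dpi and overlapped it by 100 bp in the later comparisons. In Muc5ac, a mucin gene, a gain of 9, 10 and 15 reads at 1, 5 and 7 dpi, against 0 in MEFs, lay between 2 losses that held 44 and 29 MEF reads.

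**Figure D3:**
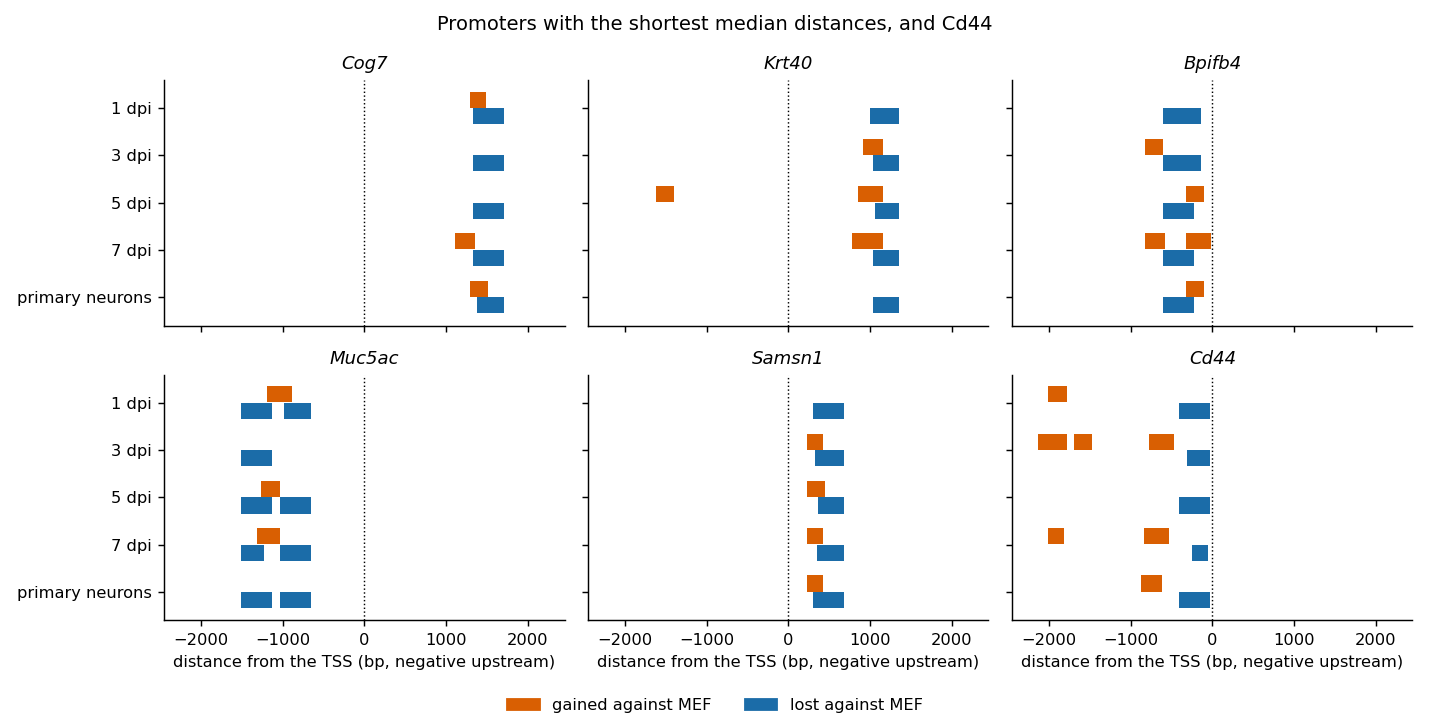
Gained (orange) and lost (blue) regions by distance from the TSS in bp (horizontal) and library (vertical) in the 5 members with the shortest median distance and in Cd44. Gain overlaps the edge of the loss in Cog7, Krt40, Samsn1, Muc5ac and Bpifb4, except at 3 dpi in Bpifb4, where it abuts the loss, and stands 160 to 1360 bp upstream of it in Cd44.

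A gain between 2 losses of the same start site, as in Muc5ac, was found in 173 of 1266 cases (13.7%) in 100 members, and a loss between gains in 95 cases (7.50%) in 71 members. Other genes were not counted in this way, so neither share is read as particular to members. Members had 2951 lost and 1906 gained regions, which leaves more room for a gain between losses than for the reverse. Gains between losses were found in 34 cases at 1 dpi, 37 at 3 dpi, 44 at 5 dpi, 30 at 7 dpi and 28 in primary neurons, and losses between gains in 14, 23, 31, 18 and 9. Taar1 and Sp7, picked after their values were seen, had a gain between losses in all 5 comparisons. At Taar1, a trace amine receptor gene, the gain (chr10:23918741-23919280 at 3 dpi) held 16, 36, 16 and 27 reads at 1, 3, 5 and 7 dpi and 12 in primary neurons, against 0 in MEFs. The loss on its upstream side held 2, 0, 4 and 1 reads at the 4 time points and 0 in primary neurons, against 27 in MEFs, and that on its downstream side 11, 8, 10, 7 and 1, against 61. At Sp7, which encodes a transcription factor of bone formation, the gain lay 1149 to 1589 bp upstream and reached 15, 31, 13 and 22 reads at the 4 time points and 11 in primary neurons, against 0 in MEFs. Losses lay 1799 to 1879 bp upstream, with 40 MEF reads, and 1521 to 1611 bp downstream, with 26 MEF reads, in every comparison.

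Gain and loss lay on the same side of the TSS more often than across it. The closest pair was split by the TSS in 40.3% (34.1 to 46.8) of cases at 1 dpi, 35.4% (30.1 to 40.9) at 3 dpi, 36.0% (30.9 to 41.4) at 5 dpi, 38.9% (32.9 to 45.2) at 7 dpi and 36.3% (30.3 to 42.5) in primary neurons. Over all comparisons it was 37.2% (34.7 to 39.8), against 40.2% (38.8 to 41.6) in genes with both lists in 1 or 2 comparisons. Each side was read from the region's own listed start, so pairs at different starts are not split by a single TSS. At the same start the share was 35.9% (33.3 to 38.7) of 1266 member pairs and 39.1% (37.7 to 40.5) of 4563 others. By its construction the closest pair is more likely to be on 1 side, and with 1 gained and 1 lost region only the share was 49.2% (45.5 to 53.0) in members and 46.5% (44.9 to 48.2) in the other genes. Split pairs with the gain upstream and the loss downstream made up 21.3% (19.2 to 23.5) of all member pairs, and the opposite order 15.9% (14.0 to 17.9), against 20% (18.9 to 21.1) and 20.3% (19.1 to 21.4) in the other genes. By library, gain upstream with loss downstream was found in 50, 57, 73 and 60 pairs at 1, 3, 5 and 7 dpi and 58 in primary neurons, and the opposite order in 48, 54, 48 and 40 pairs and 33 in primary neurons. The intervals of both orders overlapped at 1, 3, 5 and 7 dpi. In primary neurons they nearly met, with a lower limit of 18.04% for the first order and an upper limit of 17.97% for the opposite order. Both shares come from the same pairs of 1 library, so no difference between orders or libraries is read from these intervals. In 67 members every pair had gain and loss on opposite sides, and in 166 none had. These counts include pairs at different starts, with each region placed by its own start.

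**Figure D4:**
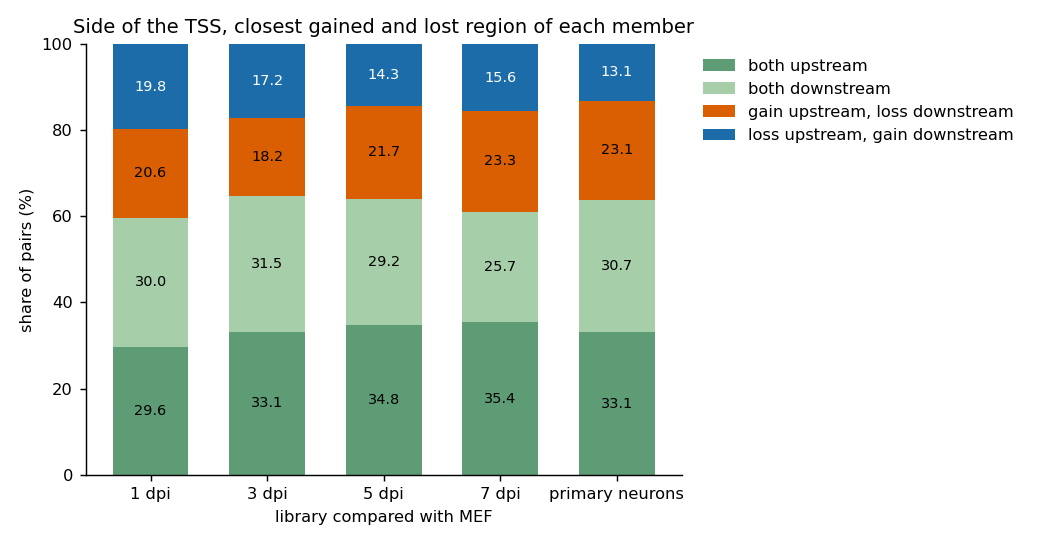
Stacked shares of the closest pairs (vertical, %) by side of the TSS, each region by its own listed start, for each library compared with MEFs (horizontal). Gain upstream with loss downstream (orange) is 20.6% at 1 dpi and 23.1% in primary neurons, and the opposite order (blue) 19.8% at 1 dpi and 13.1% in primary neurons.

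Counted by region, 53.6% (51.3 to 55.8) of the gained and 47.8% (46.0 to 49.6) of the lost regions of members were upstream of the TSS, against 51.5% (50.7 to 52.3) and 50.1% (49.7 to 50.5) of all listed regions. Gained regions were upstream in 48.4% (42.7 to 54.1) of cases at 1 dpi, 52.3% (47.5 to 57.0) at 3 dpi, 55.4% (50.9 to 59.9) at 5 dpi, 55.1% (49.8 to 60.4) at 7 dpi and 55.8% (50.2 to 61.4) in primary neurons, and lost ones in 47.1 to 48.5%. The 250 bp before the TSS held 4.67% of the gained and 4.51% of the lost regions, whereas 8.66% of the gained regions were centred 1000 to 1250 bp upstream. The median distance of a region from the TSS was 1125 bp for gains and 1043 bp for losses.

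**Figure D5:**
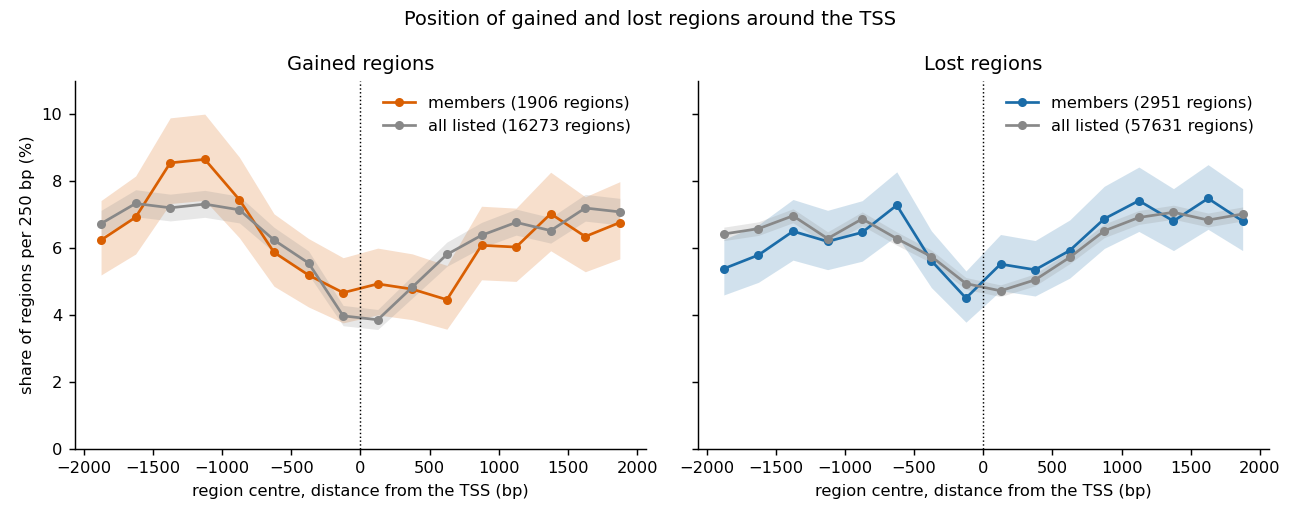
Share of regions (vertical, % per 250 bp, bands are exact 95% intervals) by the distance of their centre from the TSS in bp (horizontal), for gained (left) and lost (right) regions of members (colour) and of all listed genes (grey). Member losses are lowest, at 4.51%, in the 250 bp before the TSS, and member gains reach 8.66% at 1000 to 1250 bp upstream.

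Gains rested on fewer reads than losses. A gained region of a member held a median of 11 reads (9 to 668) and had no MEF read in 85.7% of cases, where 93.8% of all listed gains had none. A lost region held a median of 28 MEF reads (15 to 217), where the median of all listed losses was 24, and no read of the other library in 48.1%, where the share over all was 60.3%. Peaks that the authors called in MEFs overlapped 54.4% (52.6 to 56.2) of member losses and 48.6% (48.2 to 49.0) of all listed losses. Among gains, 14.0% (12.5 to 15.6) in members and 6.78% (6.40 to 7.18) over all touched a MEF peak. In genes in both lists of 1 or 2 comparisons it was 49.9% (49.2 to 50.6) of losses and 11.9% (11.1 to 12.7) of gains. Contact of gains with MEF peaks was thus not particular to members. A peak of the library in which the gain was listed was met by 24 of 1906 member gains, or 1.26% (0.808 to 1.87), and by none in primary neurons or at 1 dpi, which allows up to 1.16% and 1.18%. Over all listed gains it was 0.670% (0.550 to 0.807). At Slc36a1, an amino acid transporter gene, 2 gains at 5 dpi met such a peak, with 52 and 33 reads against 0 in MEFs, the first at least 30.3-fold higher (chr11:55202781-55203280). Its loss 551 to 631 bp downstream held 0, 1 and 2 reads at 3, 5 and 7 dpi and 0 in primary neurons, against 22 or 23 in MEFs.

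The longest distances arose where gain and loss were listed at different start sites of a gene, while 1266 of the 1401 pairs (90.4%) were at the same one. In Gpm6a the gain lay 493 to 543 bp upstream of the first listed start (chr8:54778781-54779100 at 1 dpi), with 14 reads at 1 and 5 dpi and 19 in primary neurons, against 1, 0 and 1 in MEFs. The loss lay 157 bp upstream of the second (chr8:54954381-54954760) and held 3, 1, 6 and 0 reads at 1, 3, 5 and 7 dpi and 1 in primary neurons, against 32 in MEFs, so that about 175 kb separated them. Celf2, an RNA-binding protein gene, was gained at its last listed start on the minus strand, with 19 and 11 reads at 3 and 5 dpi and 10 in primary neurons against 0 in MEFs, and lost at its other 2 starts. In primary neurons a gain of 9 reads against 0 also lay at the middle start. Nrxn3, which encodes a presynaptic adhesion molecule, had gains of 9 to 13 reads against 0 in MEFs and losses of 0 reads against 16 to 23 in MEFs, over starts more than 1 Mb apart. Efcab6 lost a region with 0 reads in all 5 comparisons, against 15 in MEFs, and gained one 128660 to 128960 bp away with 14, 17, 22 and 34 reads at 1, 3, 5 and 7 dpi and 10 in primary neurons, against 1, 0, 1, 1 and 0 in MEFs. Nr6a1, an orphan nuclear receptor gene of germ cells, had a loss 991 to 1031 bp downstream of one start, with 1, 0, 4 and 0 reads at the 4 time points and 2 in primary neurons, against 34 in MEFs. Its gains of 10 to 13 reads against 0 in MEFs lay mostly at the other start.

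None of 19 pan-neuronal, 20 neurogenic and 41 synaptic genes was a member, which allows up to 17.6, 16.8 and 8.60% by exact intervals, where 1.93% of all named genes were members. Some genes with a neuronal role outside these lists, such as Dlgap1, Nrxn3 and Nfasc, were members. Such genes were not counted, so no share of them can be given. Of the pan-neuronal and synaptic genes 5 and 8 were in both lists of 1 or 2 comparisons (26.3 and 19.5%), among them Syt1, Ncam1 and Grin1, where 20% of all named genes were in both lists of at least 1 comparison. DNA modification genes and Hox genes had no member among 18 and 31 genes, and neither did 4 astrocyte, 3 microglia and 3 muscle markers. Of 22 fibroblast genes the member was Cd44, the hyaluronan receptor. Its lost region, 155 to 225 bp upstream (chr2:102901701-102902080 at 1 and 5 dpi), held 1, 2, 0 and 2 reads at 1, 3, 5 and 7 dpi and 0 in primary neurons, against 27 in MEFs. It was gained further upstream, at most with 12, 24 and 13 reads at 1, 3 and 7 dpi and 9 in primary neurons, against 1, 1 and 0 and, in primary neurons, 0 in MEFs. Of 4 endothelial markers Pecam1, an adhesion molecule of blood vessels, lost a region downstream (0 reads in the 4 comparisons from 3 dpi on, against 18 in MEFs) and gained one upstream (9 to 13 reads against 0).

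Of 16 imprinted genes, which are expressed from a single parental allele, the member was the noncoding RNA gene Meg3. Its second listed start lost a region (chr12:109545361-109545740) with 3, 2, 0 and 7 reads at 1, 3, 5 and 7 dpi, against 40 in MEFs, and in primary neurons a shorter one with 1 read against 40. Gains of 9 to 13 reads against 0 in MEFs lay 1203 to 1403 bp downstream at 1, 3 and 5 dpi, and the gain at 7 dpi shared 180 bp with the lost region and ran past its edge.

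By gene family, keratins and keratin-associated proteins had 7 members of 88 (7.95%, 3.26 to 15.7), namely Krt28, Krt31, Krt33a, Krt33b, Krt40, Krt9 and Krtap5-3. At Krtap5-3 the gain held 27, 24 and 31 reads at 3, 5 and 7 dpi, against 0, 1 and 0 in MEFs, and the loss (chr7:142199581-142199960) 4, 1, 2 and 0 reads at the 4 time points and 0 in primary neurons, against 36 in MEFs. Olfactory receptors had 16 members of 1042 (1.54%), vomeronasal receptors 5 of 292 (1.71%), zinc finger genes 6 of 345 (1.74%), solute carriers 8 of 353 (2.27%) and TRIM genes 1 of 61, Trim24. Defensins, ribosomal protein genes and histone genes had none among 42, 75 and 39. At the olfactory receptor gene Olfr1272 the gain lay 1027 to 1227 bp upstream, with 10 and 25 reads at 3 and 5 dpi and 13 in primary neurons, against 0 in MEFs. Its loss 1813 to 1823 bp downstream held 4, 1, 2 and 0 reads at 1, 3, 5 and 7 dpi and 1 in primary neurons, against 39 in MEFs. No list was tested for enrichment.

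MicroRNA genes had 12 members of 495 (2.42%), where 1.93% of all named genes were members. Mir491 had a loss upstream and a gain downstream of its start, and its mature products, listed by RefSeq on chromosome 4 from 88122057 to 88122078 and from 88122091 to 88122112, are shown with the seed (bases 2 to 8) in capitals.
mmu-miR-491-5p: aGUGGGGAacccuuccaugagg
mmu-miR-491-3p: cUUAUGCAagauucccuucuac
The loss, 1259 to 1329 bp upstream (chr4:88120521-88120900 at 1, 5 and 7 dpi), held 0, 3, 1 and 1 reads at 1, 3, 5 and 7 dpi and 4 in primary neurons, against 39 in MEFs. The gain, 1781 to 1911 bp downstream (chr4:88123761-88124140 at 1 dpi), held 17, 19 and 18 reads at 1, 3 and 5 dpi and 20 in primary neurons, against 1, 0, 0 and 0 in MEFs. Mir3110 and Mir684-1 were listed at several places of the genome, and their values cannot be tied to a single copy.

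H2-T3, an MHC class I-like gene, showed several losses in a row with a gain beyond them. The gain, 1739 to 1819 bp upstream (chr17:36191761-36192140 at 3 dpi), held 34, 18 and 16 reads at 3, 5 and 7 dpi and 14 in primary neurons, against 0 in MEFs. The nearest loss held 17 reads at 3 and 5 dpi and 18 in primary neurons, against 76 in MEFs, and touched or overlapped the gain. Nfasc, which encodes an adhesion molecule of axon initial segments, was lost at 3 starts, and the region over the first held 2, 5, 0 and 1 reads at 1, 3, 5 and 7 dpi and 2 in primary neurons, against 54 in MEFs at 1 and 3 dpi and 35 in the rest. Its gains held 9 reads at 1, 3 and 5 dpi, against 0 in MEFs.

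The members with the most reads were multi-copy sequences, where reads cannot be assigned to a single copy. Rn45s, the precursor of ribosomal RNA, reached 143, 668, 235 and 94 reads at 1, 3, 5 and 7 dpi, against 115, 472, 133 and 63 in MEFs, in gained regions that were 2.21, 2.48, 3.09 and 2.61-fold higher. Its lost regions held 45, 32, 29 and 42 reads, against 194, 121, 107 and 217 in MEFs. Sfi1, a centrosomal gene with copies elsewhere, had 37 gained and 6 lost regions over the 5 comparisons. Pisd-ps2, a pseudogene, was gained over most of its promoter and lost a region 1417 to 1527 bp upstream, which held 0, 1, 0 and 2 reads at the 4 time points and 1 in primary neurons, against 25 to 30 in MEFs. After Rn45s, Arl9, a small GTPase gene, had the most MEF reads in lost regions, 907 summed over comparisons. Its loss 1554 to 1584 bp upstream held 12, 16 and 17 reads at 3, 5 and 7 dpi, against 128 in MEFs, beside a gain of 18, 9 and 21 reads against 0.

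Just inside the rule, with 3 comparisons, were Krt28, Zdhhc19, Spata19 and Zfp352, and just outside it, with 2, Cbr2, BC055402, Fut8 and Glo1, both by the size of their folds. Spata19, a spermatogenesis-associated gene, had gained regions of 31 and 17 reads at 3 and 7 dpi and 11 in primary neurons, against 6, 0 and 0 in MEFs, and its loss held 3, 3, 2 and 5 reads at the 4 time points and 3 in primary neurons, against 48 in MEFs. Cbr2, a carbonyl reductase gene, had gained regions of 20 and 18 reads at 3 and 5 dpi, against 4 and 1 in MEFs, beside losses of 1 read against 23 in MEFs. At 7 dpi it had a gained region of 21 reads against 1 but had no listed loss, which kept it out. Glo1, which encodes glyoxalase, lost a region in all 5 comparisons, with 0 to 4 reads against 56 in MEFs, and gained one at 1 and 3 dpi, with 27 and 15 reads against 0 and 2 in MEFs.

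The members were 352 protein-coding genes, 36 long noncoding RNA genes, 12 microRNA genes, 11 transcribed pseudogenes, 4 small nucleolar RNA genes and 3 genes not matched to RefSeq, and 314 of 418 had a single listed start. Protein-coding members with a RefSeq promoter sequence, 282 of 352, had a median of 7.42 CG dinucleotides in the 300 bp around the start, and 41.8% had at most 5. Among genes listed in 1 direction only, 7895 of 9837 had a sequence, with a median of 14 and 29.1% with at most 5. For genes in both lists of 1 or 2 comparisons 79.8% had a sequence, just under the 80% required, so this comparison is void, and a low count was not shown to be particular to members. Members had a median length of 18.8 kb, against 18.1 kb in genes in both lists of 1 or 2 comparisons, 16.2 kb in genes listed in 1 direction only and 19.3 kb in genes in no promoter list. Of listed genes on chromosome X, 2 of 521 were members (0.384%), where the shares on the autosomes were 1.55 to 4.52%, the highest on chromosome 16 with 22 of 487. On chromosome Y 1 of 9 listed genes was a member. It was listed at more than 1 place, with 113 MEF reads in its lost regions summed over comparisons. The sex of the animals was not given in the labels. None of these differences was tested.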

How the data were processed

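5hmC was profiled by hMeDIP-seq in 6 libraries. The tools named in the submitters' processing notes are Bowtie2 2.1.0 and CASAVA, and the build is mm10. Which programs called peaks and differential regions is not given in the sources used here. Used were 10 promoter lists and 6 peak lists. In the promoter lists the authors gave each region a scaled signal per library, a log2 ratio, a p-value and a q-value for 1 library against another. In the peak lists the authors gave tag counts at summits, fold enrichment, a ratio, and −log10 of q. The authors' p, at most 0.0105, and their q, at most 0.101, served only as list properties. The scaled signal was whole reads times 1 factor per library and comparison, and dividing by it left whole numbers (tolerance 0.1) in 100% of values, or 99.99% for primary neurons. These reads are the depth behind each region. No count model was fitted.

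The gap is the number of bases between the closest gained and lost region of a gene in a comparison. The side of the TSS is that of the region's centre, taken from the start listed for that region. Overlap means at least 1 bp. Shares have exact Clopper-Pearson intervals and medians order-statistic intervals, both at 95% and for counting error only. Python 3.11.15, pandas 2.3.3, numpy 2.4.6, scipy 1.17.1 and matplotlib 3.10.9 were used, and the steps were tested on simulated data. RefSeq sequences matched 314 of 418 members. No test was run, and members and gene lists were chosen with earlier results of these data known. Named genes were, without predicted genes and chromosome 18, those in both lists of most comparisons (10), with the shortest and longest distances (5 each), up to 4 per gene list, 4 on either side of the rule and those with the most reads. Genes outside these are said to be chosen after their values were seen. For gains at 3, 5 and 7 dpi the sample labels point to the list of primary neurons, but the deposited lists carry headers with each library's own code, and these headers were followed. The count of neurogenic genes in both lists of 1 or 2 comparisons is not reported here.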

Additional observations from a re-analysis of the deposited data

Results flagged for a closer look

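In 9 named members a gained region of one library and a lost region of another covered each other by at least 80% of the shorter region. Overlapping regions were thus listed as gained in one library and as lost in another, both against the same MEF library. The difference was not tested. In all of them but Mir466n, Serpina9 and Arl9 the library with the gain was itself listed with a loss that overlapped this gain in part. In Arl9 this held for the upstream gain at 3 and 7 dpi, but not for that at 5 dpi or for the gains downstream of the start. The largest shared lengths were 340 bp in Arl9, 280 bp in Olfr702, 200 bp in Rn45s and 180 bp in Bpifb4, Cog7, Meg3, Mir466n, Serpina9 and Vmn2r55. In Cog7 the gain of primary neurons held 9 reads against 0 in MEFs, while the loss at 3 dpi, with 180 bp in common, held 2 reads against 46 in MEFs. In Arl9 the gain at 7 dpi held 21 reads against 0 in MEFs, and the loss at 1 dpi, 940 bp long, 26 reads against 176. In Olfr702 the gain at 3 dpi held 11 reads against 0 in MEFs and lay inside a loss at 7 dpi of 8 reads against 98. In Serpina9 the gain of primary neurons held 16 reads against 0 in MEFs, and the loss at 5 dpi 0 reads against 21. In Meg3 the gain at 7 dpi held 9 reads against 0 in MEFs, and the loss at 5 dpi 0 reads against 40. The MEF reads listed for the gain and for the loss differed at each of these places although the regions overlapped. The 2 listings are therefore not read as opposite changes of the same bases. Rn45s has many copies.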

How the results depend on the processing

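No paired analysis was possible because each group was 1 library. The number of members was 1361 with at least 2 comparisons required, 123 with at least 4 and 27 with all 5. It was 45 when regions needed at least 15 reads in the higher library, a limit that every lost region already met, and 65 with the authors' p below 1e-05. Leaving out a comparison, with 3 of the other 4 required, gave 256 without 1 dpi, 220 without 3 dpi, 197 without 5 dpi, 268 without 7 dpi and 264 without primary neurons. It was 352 when gain and loss had to be at the same start site and 413 without regions listed for a second gene. The median distance of 600 bp became 900 bp between centres, 1240 bp over all pairs of a gene and 480 bp in genes with 1 start, and stayed within its interval at 610 bp with at least 15 reads and at 540 bp without losses of 380 bp, an alternative chosen after seeing the data. The share of pairs split by the TSS, 37.2%, became 49.6% over all pairs of a gene. It stayed within its interval when regions spanning the TSS were left out (36.0%), in genes with 1 start (37.1%) and without genes at several places (37.0%, chosen after seeing the data). The share of losses on a MEF peak, 54.4%, was 20.8% with MEF peaks of at least 5-fold enrichment. The shares upstream and the share of gains on a peak of their own library kept within their intervals under each alternative tried. Gains with 9 to 14 reads limit what can be said of single regions.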
